A study of Rattus norvegicus with 6 samples.

Results

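The genes that build fatty acids, triglycerides and sterols were compared in the heart between an obesity-prone (OP) rat line kept on high-fat food and an obesity-resistant (OR) line kept on standard food. The 38 genes were taken by symbol from a list of enzymes and regulators of these pathways. The list also holds Retsat, which is not an enzyme of fatty acid or sterol synthesis. All 38 genes were found among the 32883 measured. Of them, 37 were expressed well enough to be tested. Myocardial RNA came from 3 OP rats on the high-fat diet and 3 OR rats on standard food, all kept on their diet for 12 months, with 1 library per rat. Both lines are selectively bred Sprague Dawley rats whose tendency to gain weight is inherited through many genes. The study uses the OP rats on this food to model a heart failure in which the ejection fraction stays normal. Line and food changed together, and their effects cannot be told apart.

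Fatty acid synthesis starts from citrate, which ATP citrate lyase (Acly) splits into acetyl-CoA. Acetyl-CoA carboxylases (Acaca, Acacb) make malonyl-CoA, and fatty acid synthase (Fasn) joins these units into palmitate, which elongases (Elovl) and desaturases (Scd, Fads) then modify. Glycerol phosphate is acylated by Gpam and the Agpat enzymes, dephosphorylated by lipins and acylated once more by Dgat1 or Dgat2 to give triglyceride. Sterols are made from acetyl-CoA through mevalonate, farnesyl diphosphate and squalene. The transcription factors SREBP-1 and SREBP-2 (Srebf1, Srebf2) switch on most of these genes when Scap escorts them out of the endoplasmic reticulum, and Insig1 and Insig2 hold Scap back when sterols are plentiful. The adult heart takes up most of its fatty acids from the blood, and malonyl-CoA made by Acacb at the mitochondrion restrains their oxidation.

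The sequences upstream of 4 genes named in the results below are shown first. They are the 300 bases from 250 before to 50 after the RefSeq start on the GRCr8 assembly, while the expression values were made on Rnor 6.0. Retsat is shown because it is the 1 gene of the group that differed past the threshold. Idi1, Lss and Sc5d are shown because they are the sterol enzymes whose CPM did not overlap between the groups, the first higher and the others lower in OP rats, although Sc5d overlapped after the rescaling used in the test. Capitals mark CCAAT or its reverse complement ATTGG, the box bound by the factor NF-Y, which acts together with SREBP at many of these genes.
Retsat (chr4:106211209-106211508, plus strand): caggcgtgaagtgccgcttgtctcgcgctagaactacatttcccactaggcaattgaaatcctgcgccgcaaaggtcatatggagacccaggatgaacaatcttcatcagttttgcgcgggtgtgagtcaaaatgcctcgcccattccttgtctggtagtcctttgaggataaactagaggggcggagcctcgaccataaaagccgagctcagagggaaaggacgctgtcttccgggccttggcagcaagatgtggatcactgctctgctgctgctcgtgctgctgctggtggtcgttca
Idi1 (chr17:66547475-66547774, minus strand): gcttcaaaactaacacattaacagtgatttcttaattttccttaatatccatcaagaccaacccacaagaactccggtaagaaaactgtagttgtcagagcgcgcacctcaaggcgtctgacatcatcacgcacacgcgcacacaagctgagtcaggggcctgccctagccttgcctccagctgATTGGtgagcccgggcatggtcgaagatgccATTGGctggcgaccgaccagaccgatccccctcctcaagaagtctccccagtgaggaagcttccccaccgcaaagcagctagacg
Lss (chr20:12118181-12118480, minus strand): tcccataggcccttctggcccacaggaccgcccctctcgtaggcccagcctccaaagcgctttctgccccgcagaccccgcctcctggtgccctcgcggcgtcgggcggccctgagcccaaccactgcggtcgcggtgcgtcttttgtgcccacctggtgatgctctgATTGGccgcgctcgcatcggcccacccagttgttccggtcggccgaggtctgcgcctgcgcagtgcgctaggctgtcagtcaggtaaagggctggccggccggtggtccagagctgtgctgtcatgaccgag
Sc5d (chr8:51538228-51538527, minus strand): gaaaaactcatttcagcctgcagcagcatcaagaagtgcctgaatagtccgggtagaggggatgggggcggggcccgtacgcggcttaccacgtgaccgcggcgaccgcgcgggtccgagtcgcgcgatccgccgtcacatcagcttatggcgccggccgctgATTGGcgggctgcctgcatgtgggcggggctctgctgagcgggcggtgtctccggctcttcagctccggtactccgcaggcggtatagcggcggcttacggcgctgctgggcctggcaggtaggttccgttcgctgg
RefSeq windows were found for 31 of the 38 genes, 32 windows in all because Srebf1 has 2 starts. Acaca, Dgat1, Dgat2, Elovl6, Fasn, Fdft1 and Sqle had no window, so the counts below do not cover them. The box was present on either strand in 20 of these 32 windows (62.5%), against 37.5% of all 33469 windows. Among sterol enzymes it was present in 7 of 9 windows, those of Idi1, Lss and Sc5d included, which include the enzyme with higher and those with lower values. The Retsat window held none. A form of the sterol regulatory element, TCACNCCAC on either strand, was found in 0 of the 32 windows and in 1.12% of all windows. The direct repeat of AGGTCA with 1 base between the copies, searched on both strands and a site form of PPAR and related receptors, was found in 0 and in 0.0538%. Other forms of these elements were not searched.

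Expression is given as CPM, read counts scaled to the size of each library, per rat or as mean ± SD over 3 rats, and is not corrected for gene length, so levels are compared between rats and not between genes. Differences are log2 fold changes, OP divided by OR, each with its standard error (SE) or 95% confidence interval. The test was limma with a mean-variance trend, with Benjamini-Hochberg adjustment across the 13445 genes tested. The libraries held 10838184 to 12831600 reads assigned to genes. OP replicate 2 stood apart from the others. After rescaling it was the lowest of the 6 libraries in 27.9% and the highest in 26.8% of all genes tested, against 12.6% to 16.0% and 12.3% to 16.2% in the other libraries. The cardiomyocyte markers were abundant in every library. Those 7 genes, Myh6 and Tnnt2 among them, summed to 35300 to 37400 CPM in OP hearts, against 36200 to 39300 CPM in OR hearts. Markers of other cells differed too. The 10 Schwann cell markers summed to 136 to 209 CPM in OP hearts, against 113 to 124 CPM in OR hearts. Of 9 tested, 3 passed, all higher in OP rats, against 1.47% of all genes tested. By log2 fold change 8 of the 9 were higher and 1, Egr2, was lower (-0.38). All 7 smooth muscle and pericyte markers had positive log2 fold changes, and 1 passed. Of these 7, 6 had an unadjusted p under 0.05 in limma, against 10.4% higher among all genes tested. Their part in the results below was not tested.

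Of the genes on the list, only Retsat passed the test, and for nearly all others the interval of the difference lay within a 2-fold change either way. Retsat encodes retinol saturase, which reduces a double bond of retinol and is not an enzyme of fatty acid or sterol synthesis. The other 36 tested genes, the enzymes and regulators of the pathways themselves, were not called. Of the 37 genes tested, none was higher and 1 was lower in OP rats at an adjusted p under 0.05 from limma, that is 2.7%. Of all genes tested, 1.47% were higher and 1.9% lower, 3.37% in all. With voom on the recovered reads, the 37 genes again gave 0 higher and 1 lower, and all genes gave 156 higher and 214 lower, against 197 and 256 with limma on the deposited values. At an unadjusted p under 0.05, 3 of the 37 had higher and 5 had lower values in OP rats, 21.6% against a background of 22.3%. The CPM of the groups did not overlap for 5 genes (13.5%), against 28.1% of all genes. After the rescaling used in the test, which was looked at after the data were seen, this held for 4 genes (10.8%), against 29.5% of all genes. In bulk tissue, fewer cells of a type and less RNA per cell cannot be told apart.

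The log2 fold changes of the 37 genes had a median of 0.02, and 19 were above and 18 below 0. Their median size without regard to sign was 0.12, against 0.17 over all genes tested. For 35 of them (94.6%, against 85.9% of all genes) the 95% interval lay within -1 and 1, so a change of 2-fold lay outside it. The exceptions were Retsat and Dgat2. For 23 the interval lay within -0.5 and 0.5.

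**Figure D1:**
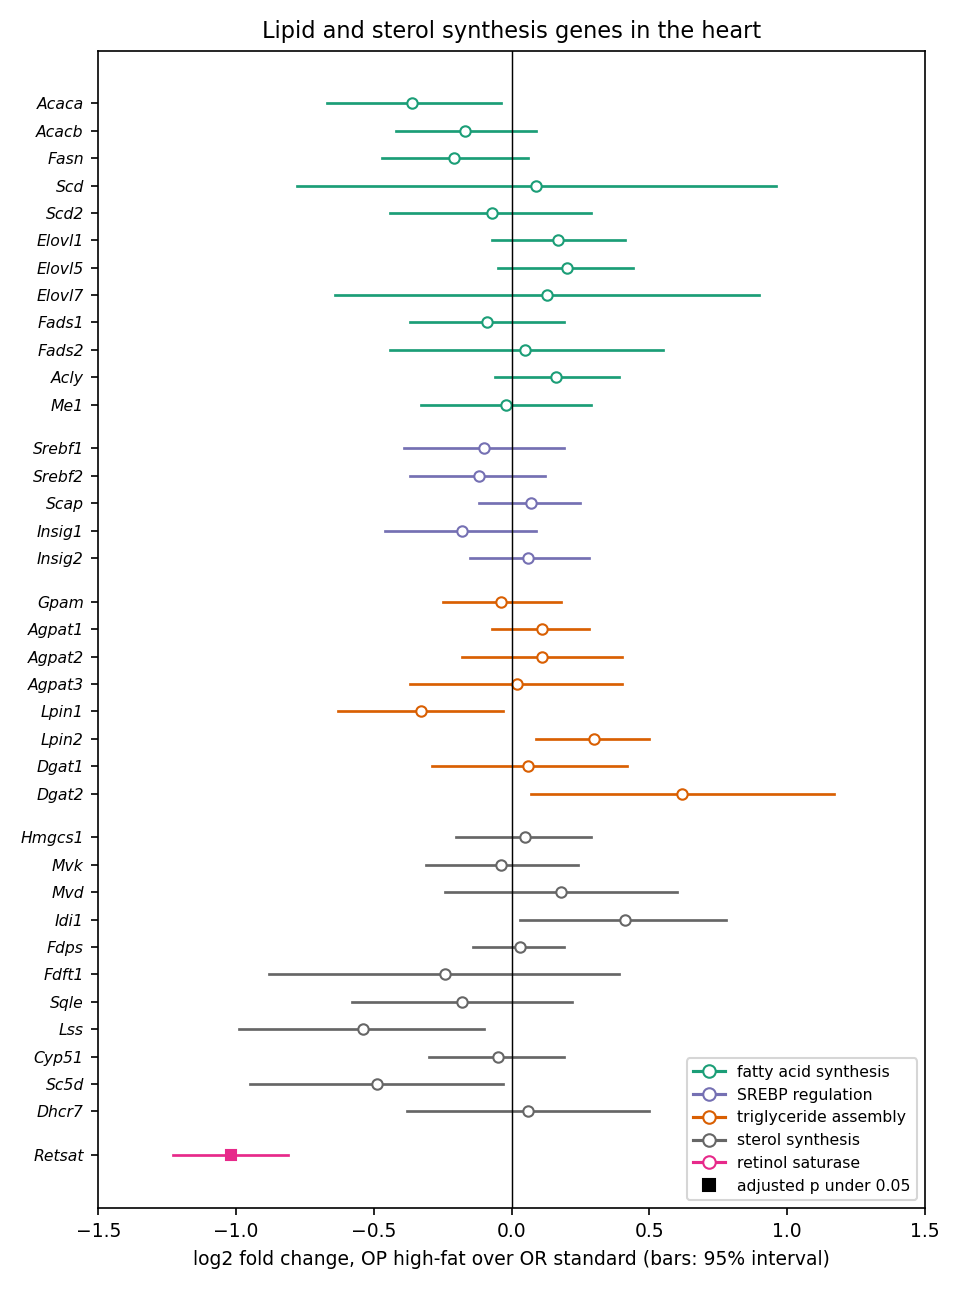
Log2 fold change of OP high-fat over OR standard hearts for the 37 tested genes, grouped by role. Points are estimates from limma over 3 rats per group and bars their 95% confidence intervals. The filled square is Retsat at -1.02, the only gene with an adjusted p under 0.05, and all other points lie between -0.54 and 0.62.

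Retsat was lower in all 3 OP rats. It stood at 71.8, 76.9 and 64.8 CPM in OP hearts, against 152, 148 and 148 CPM in OR hearts, from 831 to 849 reads in OP libraries and 1643 to 1762 reads in OR libraries. The groups lay far apart, with a spread of 6.05 CPM (SD) around 71.1 CPM in OP rats and of 2.10 CPM around 149 CPM in OR rats. The log2 fold change was -1.02 (SE 0.09, 95% interval -1.23 to -0.81, adjusted p = 0.00248 from limma), a level in OP rats of 0.492 of that in OR rats. It ranked 17 by p among all genes tested. It passed whichever library was left out, with log2 fold changes of -1.10 to -0.94 and adjusted p-values of 4.5e-04 to 0.029. In mice the gene is active in fat cells and its product promotes their differentiation. Retsat also stands among the differing genes that the study drew from these same libraries, so its call here is not independent evidence.

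Genes of retinoid metabolism were tested as a list of 17, of which 12 were expressed well enough. The list includes Dgat1, which is also counted below among the genes of triglyceride assembly. None of the 12 passed in either direction from limma. With an unadjusted p under 0.05, 0 were higher and 2 lower, against 10.4% and 12% of all genes tested. The median log2 fold change of the 12, Dgat1 included, was -0.02.

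The neighbours of Retsat on chromosome 4 were looked at after its values had been seen. Elmod3, a regulator of small GTPases, is the next gene in the RefSeq annotation. It lies on the opposite strand with its start toward that of Retsat, and the spans of the genes do not overlap in GRCr8. Elmod3 stood at 30.1, 29.5 and 29.6 CPM in OP hearts, against 21.5, 21.5 and 19.5 CPM in OR rats. It was higher in every OP rat than in any OR rat, opposite to Retsat (log2 difference 0.56, SE 0.09, adjusted p = 0.0198 from limma). Mat2a, which makes the methyl donor S-adenosylmethionine, stood at 116, 108 and 111 CPM in OP hearts, against 172, 151 and 153 CPM in OR hearts. It was lower in every OP rat (-0.46, SE 0.08, adjusted p = 0.0226 from limma). Of the 4 nearest genes on either side that were in the table, 7 were tested, and the other 5 of these did not pass. Elmod3 no longer passed when OP replicate 1 was left out (limma, adjusted p = 0.0614) or without any 1 of the OR rats (0.0801 to 0.11). The call of Mat2a was lost without any library but OP replicate 2 (0.0576 to 0.113). The sources used here do not give the strand setting of the read counting, and how reads between the starts of Retsat and Elmod3 were assigned was not tested.

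**Figure D2:**
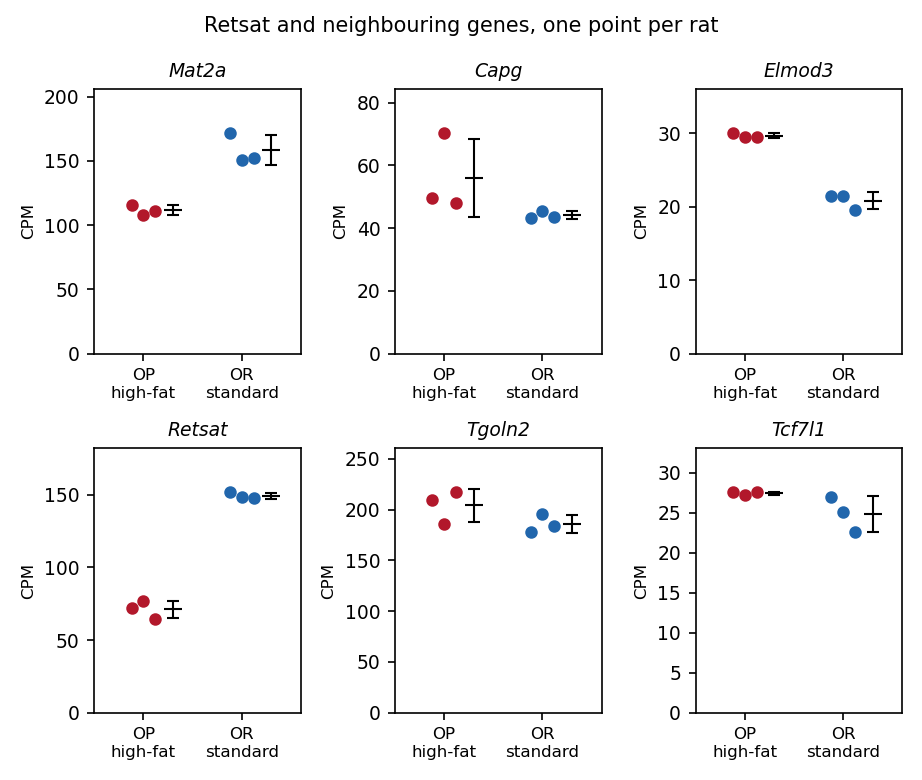
Expression in CPM of Retsat and 5 neighbouring genes, each point 1 rat, OP high-fat on the left and OR standard on the right of each panel. Bars are mean ± SD over 3 rats. Retsat is at 64.8 to 76.9 CPM in OP hearts, against 148 to 152 CPM in OR hearts, while Elmod3, the gene facing it, is higher in OP rats.

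Of the 12 tested genes of fatty acid synthesis, none passed in either direction from limma or with voom. With an unadjusted p under 0.05, 0 were higher and 1 lower, against 10.4% and 12% of all genes tested. The median log2 fold change of the 12 was 0.02. The CPM of the groups overlapped for all 12, while it did not overlap in 28.1% of all genes tested. Fasn, which makes palmitate, stood at 23.8, 20.3 and 19.5 CPM in OP hearts, against 25.6, 27.4 and 22.8 CPM in OR rats. Most OP values were below the OR values, but the highest OP rat was above the lowest OR rat (log2 fold change -0.21, 95% interval -0.47 to 0.06). Acaca, the cytosolic carboxylase, stood at 23.2, 17.2 and 20.6 CPM in OP hearts, against 22.9, 28.9 and 28.9 CPM in OR rats. Its log2 fold change was -0.36 (SE 0.14), with an unadjusted p of 0.0328 that did not pass adjustment (0.184 from limma). The groups overlapped through OR replicate 1, the lowest of the OR rats, and OP replicate 1, the highest of the OP rats.

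Acacb, the carboxylase of the mitochondrial surface and the form that predominates in muscle, stood at 560.1, 419 and 559 CPM in OP hearts, against 596, 553 and 622 CPM in OR hearts. OP replicate 2 was the lowest, and without it the log2 fold change was -0.05, against -0.17 with all libraries (adjusted p = 0.41 from limma). Acly stood at 48.9, 58.2 and 56.6 CPM in OP hearts, against 48.1, 51.4 and 51.3 CPM in OR rats (0.16, 95% interval -0.06 to 0.39). Me1, the malic enzyme that supplies NADPH, was at 247 ± 49.8 CPM in OP hearts, against 255 ± 19.0 CPM in OR rats, with a log2 fold change of -0.02. For both enzymes the highest and lowest rats of the groups overlapped.

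The desaturases and elongases also overlapped between the groups. Scd, a stearoyl-CoA desaturase, stood at 1.3, 2.3 and 1.45 CPM in OP hearts, against 0.85, 1.95 and 2.30 CPM in OR rats. These values rest on 9 to 26 reads, and the interval of the log2 fold change was wide, at -0.78 to 0.96. Its paralog Scd2 was at 75.7 ± 18.9 CPM in OP hearts, against 80.9 ± 5.87 CPM in OR rats (-0.07, 95% interval -0.44 to 0.29). Fads1 and Fads2, the desaturases of polyunsaturated fatty acids, had log2 fold changes of -0.09 and 0.05, and Elovl1, Elovl5 and Elovl7 of 0.17, 0.20 and 0.13. Elovl6, which elongates palmitate, was listed at 0 in all 6 libraries, which at 3 reads allows up to 0.277 CPM in the shallowest of them, a limit for counting error only. It could not be tested, and whether its reads were assigned elsewhere was not tested.

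The 5 regulators of SREBP activity had log2 fold changes of -0.18 to 0.07. Their median size without regard to sign was 0.10, against 0.11 to 0.18 in the other groups with several genes. None passed from limma or with voom. None had an unadjusted p under 0.05, against 22.3% of all genes tested, and all 5 intervals lay within -0.5 and 0.5. Srebf1 stood at 23.3, 19.5 and 25.5 CPM in OP hearts, against 21.9, 27.2 and 26.3 CPM in OR rats (-0.10, 95% interval -0.39 to 0.19). Srebf2 stood at 42.8, 34.2 and 46.7 CPM in OP hearts, against 45.9, 48.5 and 44.0 CPM in OR rats (-0.12, 95% interval -0.37 to 0.12). Each was lowest in OP replicate 2, and the other OP rats lay within or next to the OR range.

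Insig1, itself a target of SREBP, stood at 65.6, 48.4 and 63.6 CPM in OP hearts, against 64.7, 66.9 and 75.3 CPM in OR rats. It too was lowest in OP replicate 2, without which its log2 fold change was -0.07, against -0.18 with all libraries (adjusted p = 0.398 from limma). Insig2 was at 31.6 ± 1.21 CPM in OP hearts, against 31.2 ± 2.74 CPM in OR rats, with a log2 fold change of 0.06. Scap was at 70.1 ± 6.20 CPM in OP hearts and 68.9 ± 2.90 CPM in OR hearts, with 0.07.

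Of the 8 genes of triglyceride assembly, none passed from limma or with voom. With an unadjusted p under 0.05, 2 were higher and 1 lower, against 10.4% and 12% of all genes tested. Dgat2, which adds the last acyl chain, had the widest difference of the group after Retsat. It stood at 52.3, 33.9 and 29.6 CPM in OP hearts, against 32.3, 19.4 and 25.3 CPM in OR rats. OP replicate 1 was far above the rest, and the lowest OP rat was below the highest OR rat. The log2 fold change was 0.62 (SE 0.24, 95% interval 0.07 to 1.17, adjusted p = 0.182 from limma), and without OP replicate 1 it was 0.39. Dgat1, which catalyses the same step, stood at 66.9, 44.3 and 65.7 CPM in OP hearts, against 62.1, 50.3 and 60.1 CPM in OR rats. Its log2 fold change was 0.06 with an interval of -0.29 to 0.42.

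Dgat2 is also abundant in fat cells. The fat cell markers Adipoq and Plin1 were low in all hearts, with Adipoq at 0.30, 2.30 and 3.05 CPM in OP hearts, against 0.00, 0.60 and 0.10 CPM in OR rats. Plin1 was at 0.00, 0.65 and 1.2 CPM in OP hearts, against 0.10, 0.30 and 0.10 CPM in OR rats. Cfd, another of the markers, was not near 0, at 9.17 ± 2.57 CPM in OP hearts, against 10.3 ± 0.425 CPM in OR rats. Its log2 fold change was -0.15, the only negative value among the 4 tested markers, against 3 positive. Among OP rats, replicate 1, which had the highest Dgat2, had the lowest Adipoq and Plin1 and the highest Cidea, at 110.4 CPM against 75.6 and 90.5 CPM in replicates 2 and 3. The 12 fat cell markers summed to 210.0 to 247 CPM in OP hearts, against 146 to 168 CPM in OR hearts, most of it from Cidea and Lipe. Of the 4 tested markers Cidea alone passed, higher in OP rats, against 1.47% of all genes tested. Their part in the level of Dgat2 or Retsat was not tested.

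The lipins, phosphatidic acid phosphatases, had differences of opposite sign, and neither passed. Lpin2 stood at 25.7, 25.8 and 25.1 CPM in OP hearts, against 21.1, 22.1 and 21.2 CPM in OR rats. All OP rats were above all OR rats, by a small and even step (log2 difference 0.30, SE 0.09, unadjusted p = 0.0104, adjusted p = 0.112 from limma). Lpin1, the main lipin of muscle, stood at 99.0, 82.2 and 125 CPM in OP hearts, against 123, 130.1 and 139 CPM in OR rats. OP replicates 1 and 2 were below all OR rats and OP replicate 3 was within the OR range (-0.33, SE 0.13, adjusted p = 0.19 from limma). Leaving out OP replicate 2 gave -0.21, and leaving out OP replicate 3 gave -0.46.

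Gpam, which starts glycerolipid synthesis in mitochondria, stood at 96.2, 79.6 and 105 CPM in OP hearts, against 101, 97.3 and 98.0 CPM in OR rats. The OR rats lay within the range of the OP rats (-0.04, 95% interval -0.25 to 0.18). Agpat1, Agpat2 and Agpat3, which add the second acyl chain, had log2 fold changes of 0.11, 0.11 and 0.02. The intervals of Gpam and of these 3 genes lay within -0.5 and 0.5.

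**Figure D3:**
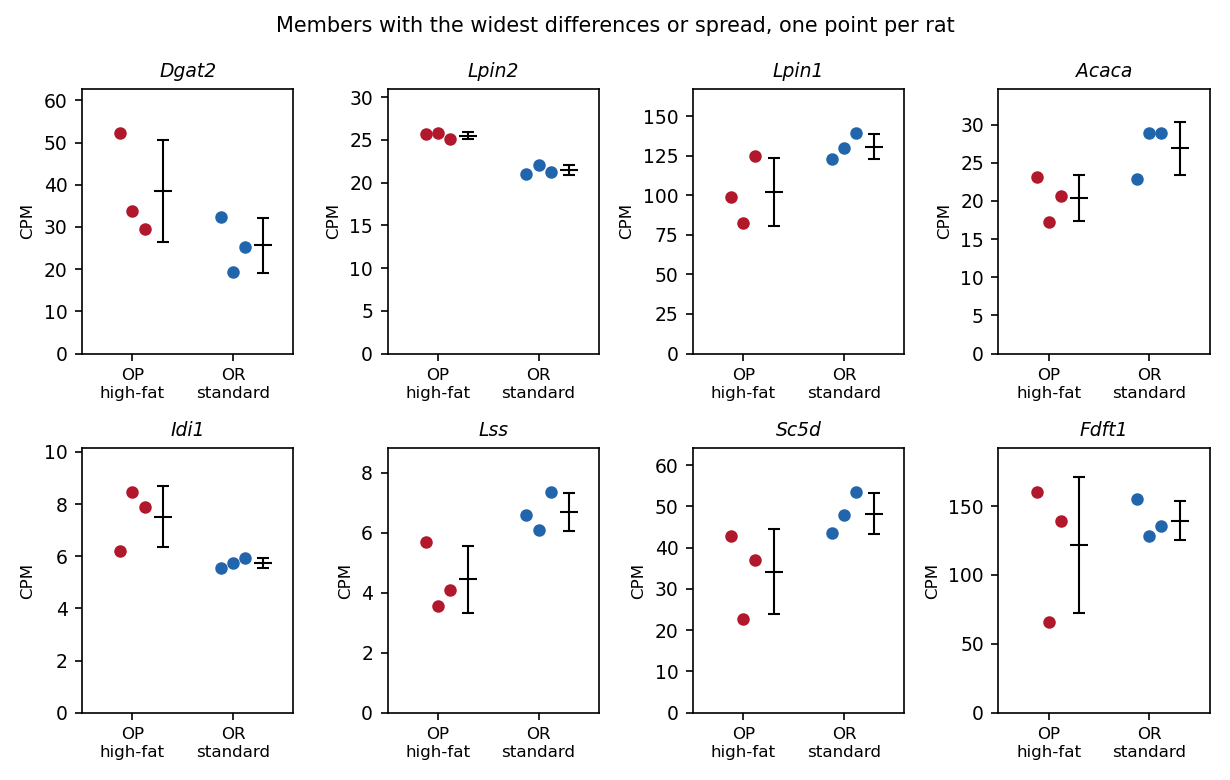
Expression in CPM of 8 genes of triglyceride, fatty acid and sterol synthesis, each point 1 rat, OP high-fat on the left and OR standard on the right. Bars are mean ± SD over 3 rats. In CPM, Lpin2 and Idi1 are higher and Lss and Sc5d lower in every OP rat than in any OR rat (Sc5d overlaps after rescaling), the other 4 overlap, and none passed an adjusted p under 0.05.

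Of the 11 enzymes of sterol synthesis, none passed from limma or with voom. With an unadjusted p under 0.05, 1 was higher and 2 lower, against 10.4% and 12% of all genes tested. The median log2 fold change of the 11 was -0.04 (0.00 over all genes tested). Hmgcs1, which makes the precursor of mevalonate, stood at 35.7, 33.0 and 40.4 CPM in OP hearts, against 32.6, 37.1 and 39.4 CPM in OR rats. The ranges were nearly the same, and the mean was 36.4 CPM in both groups. Sqle, which forms the first oxygenated sterol precursor, stood at 5.10, 6.2 and 7.5 CPM in OP hearts, against 7.30, 8.10 and 6.50 CPM in OR rats (-0.18, 95% interval -0.58 to 0.22). Cyp51, the lanosterol demethylase, stood at 40.4, 37.0 and 49.2 CPM in OP hearts, against 43.0, 46.5 and 45.4 CPM in OR rats (-0.05, 95% interval -0.30 to 0.19).

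The CPM of Idi1, Lss and Sc5d, whose upstream sequences are shown above, did not overlap between the groups. In CPM, OP rats were above in 5.41% and below in 8.11% of the 37, against 10.4% and 17.7% of all genes tested. After rescaling these shares were 5.41% and 5.41% of the 37, against 15% and 14.5% of all genes, since Sc5d in OP replicate 1 was then above OR replicate 1. Idi1, which isomerises isopentenyl diphosphate, stood at 6.20, 8.45 and 7.90 CPM in OP hearts, against 5.55, 5.75 and 5.95 CPM in OR rats (log2 difference 0.41, SE 0.16, adjusted p = 0.191 from limma). Lss, which closes the sterol ring to lanosterol, stood at 5.70, 3.55 and 4.10 CPM in OP hearts, against 6.60, 6.10 and 7.35 CPM in OR rats. Its values rest on 39 to 84 reads per library, and the difference of -0.54 ± 0.19 (log2, SE) had an adjusted p of 0.156 in limma. Sc5d, a late sterol desaturase, stood at 42.8, 22.8 and 37.0 CPM in OP hearts, against 43.6, 47.8 and 53.4 CPM in OR rats. OP replicate 1 was close to the lowest OR rat in CPM, and the difference of -0.49 on the log2 scale (SE 0.20, adjusted p = 0.202 from limma) was -0.25 when OP replicate 2 was left out.

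Fdft1, squalene synthase, was singled out after its values were seen because 1 library set its spread. It stood at 160.0, 65.8 and 139 CPM in OP hearts, against 155, 128 and 135 CPM in OR hearts. OP replicate 2 was far below all others, while OP replicate 1 was above the OR range and OP replicate 3 within it. The log2 fold change was -0.24 with an interval of -0.88 to 0.39, and without OP replicate 2 it was 0.13. Fdps, the enzyme before it in the pathway, was even across the rats, at 78.3 ± 2.39 CPM in OP hearts, against 79.5 ± 2.25 CPM in OR rats. Mvk, Mvd and Dhcr7 had log2 fold changes of -0.04, 0.18 and 0.06.

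OP replicate 2, and less often OR replicate 1, stood at the low end of many of these genes. After rescaling, OP replicate 2 was the lowest of the 6 libraries in 15 of the 37 genes (40.5%) and the highest in 8 (21.6%), against 27.9% and 26.8% of all genes. It was the lowest in 5 of 11 sterol enzymes, 4 of 8 genes of triglyceride assembly, 3 of 5 regulators and 3 of 12 fatty acid synthesis genes. The same rat was the highest in another 3 of those 12, in 3 of the 11 sterol enzymes and in 2 of the 8 genes of triglyceride assembly. OR replicate 1 was the lowest in 10 of the 37 genes (27%) and the highest in 2 (5.41%), against 12.7% and 14.4% of all genes. The summed expression of the sterol enzymes was 395, 277 and 389 CPM in OP hearts, against 399, 382 and 392 CPM in OR hearts. OP replicate 2 was thus the only rat below the others in this sum, and the remaining OP rats were within the OR range. The widest drops in OP replicate 2 were those of Fdft1, at 65.8 CPM against 128 to 160 CPM in the other rats, and Sc5d, at 22.8 CPM against 37.0 to 53.4 CPM. The sums of the fatty acid synthesis genes were 1130, 888 and 1120 CPM in OP hearts, against 1110, 1110 and 1190 CPM in OR hearts, with the same rat lowest. Acacb and Me1 made up most of that sum. Without OP replicate 2, Retsat was still the only gene of the 37 that passed (adjusted p = 4.5e-04 from limma).

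**Figure D4:**
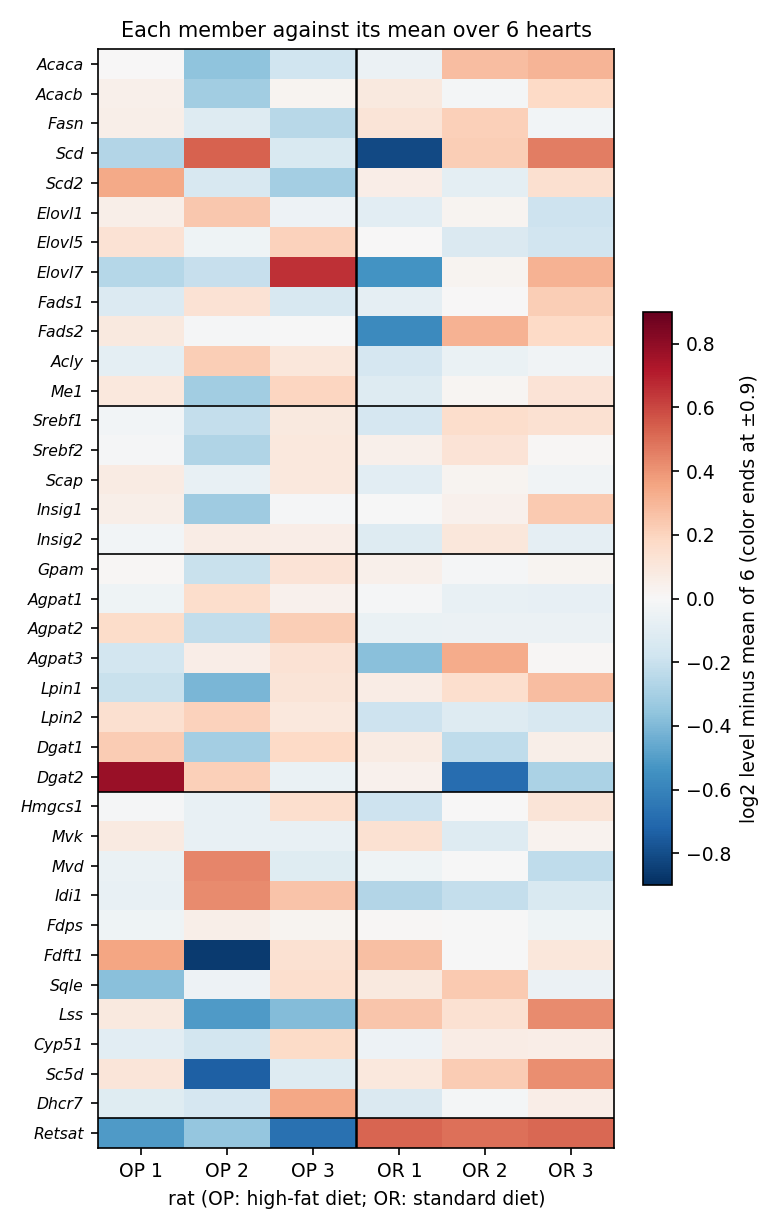
Level of each of the 37 tested genes in each heart, as log2 after rescaling minus the mean of the 6 hearts, with OP rats on the left and OR rats on the right of the black line and role groups divided by horizontal lines. Retsat is below its mean in all 3 OP rats, while the column of OP replicate 2 holds the lowest value in 15 of the 37 genes, Fdft1 and Sc5d among them.

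A wider list of 96 further genes of the same pathways and of sterol transport, the retinoid enzymes included, was counted in the same fit, and 80 were tested. Of these 1 was higher and none lower in OP rats at an adjusted p under 0.05 from limma, against 1.47% higher and 1.9% lower of all genes tested. With an unadjusted p under 0.05, 7 of the 80 were higher and 7 lower, against 10.4% and 12% of all genes tested. The median log2 fold change of the 80 was 0.03. The gene that passed was Abcg1, a transporter that exports cholesterol from cells. It stood at 22.4, 19.4 and 25.6 CPM in OP hearts, against 16.4, 13.1 and 12.4 CPM in OR rats, higher in every OP rat (log2 difference 0.73, SE 0.14, adjusted p = 0.0354 from limma). The call was kept only without OP replicate 2 (0.0178) and was lost without any other library (0.0651 to 0.158). None of 10 other enzymes of sterol synthesis passed, and 0 had an unadjusted p under 0.05 in either direction. Nor did any of 28 other genes of fatty acid synthesis and activation pass (3 higher and 2 lower by unadjusted p) or of 12 other genes of triglyceride assembly (3 higher and 1 lower).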

How the data were processed

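Libraries were prepared with the TruSeq kit from total RNA of myocardial tissue, 1 per rat. The authors trimmed reads with Trimmomatic, mapped them to Rnor 6.0 with STAR and counted them over Ensembl genes with HTSeq. Each deposited value is a score, for which the authors scaled each library to 20000000 reads and rounded the values up, so the values are not raw counts. CPM is this value divided by 20. From the steps between values, the underlying reads were recovered in Python 3.11.15 (pandas 2.3.3, NumPy 2.4.6, with figures in matplotlib 3.10.9), and 99.75% to 99.88% of values above 0 were exact whole reads scaled and rounded up. A single read was worth 0.0779 to 0.0923 CPM.

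Genes that reached 1 CPM in 3 or more libraries were tested with limma 3.58.1 in R 4.3.3, on log2 of the value divided by TMM factors plus 4 (0.2 CPM), OP over OR, with no covariate and Benjamini-Hochberg adjustment over all genes tested. The added 4 makes fold changes of genes with few reads smaller. A design for raw counts was not used because of the scaling. The steps were tested on simulated data. Where symbols stand on several lines the line with the most reads was taken. Values per rat are given for genes with an unadjusted p under 0.05 and for 17 rate-limiting or regulatory genes, and other genes by range and count. Genes of the wider lists are named when called. The exceptions, Fdft1, the neighbours of Retsat and 3 genes in the closing section, were chosen after their values were seen. The members, lists and rules were chosen with earlier results of these data known. Of the 96 wider genes, 3 had no line in the table used here. Promoter sequences are from RefSeq, GRCr8, matched by symbol. Alternatives were other scalings, filters and pseudocounts, voom, robust estimation, a block for replicate number and leaving out each library.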

Additional observations from a re-analysis of the deposited data

How the results depend on the processing

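Under all 15 alternatives, none of the 37 genes was called higher and Retsat alone was called lower, with log2 fold changes of -1.10 to -0.94. Over all genes, 197 were called higher and 256 lower in OP rats. These counts were 126 and 155 with the replicate number as a block, and 36 to 373 higher and 20 to 402 lower with 1 library left out. The most calls came without OP replicate 2 and the fewest without OR replicate 1. Each of these fits has fewer residual degrees of freedom. Whether the replicate numbers pair the rats could not be settled from 3 rats per group. Deviations of same-numbered rats from their group means correlated across genes at 0.06, 0.07 and 0.13, against -0.17 to 0.08 for rats of different number. Not every rat correlated best with its own number. With the replicate block the adjusted p of Retsat from limma was 0.0106, and that of Abcg1 was 0.0595. Across the alternatives, 14 of the 37 genes had log2 fold changes on both sides of 0. None of these was called in any of them. Besides the 6 genes detailed next they were Agpat3 (-0.16 to 0.19), Dhcr7 (-0.09 to 0.15), Elovl7 (-0.16 to 0.33), Fads2 (-0.21 to 0.23), Fdps (-0.02 to 0.05), Me1 (-0.11 to 0.13), Mvk (-0.10 to 0.03) and Scd2 (-0.26 to 0.07). Hmgcs1 was at 0.00 with no rescaling, -0.01 without OP replicate 3 and -0.03 without OR replicate 1. Dgat1 was at -0.03 without OP replicate 1, 0.00 without OP replicate 3 and -0.03 without OR replicate 2. With 1 library left out, the ranges were -0.03 to 0.12 for Hmgcs1, -0.03 to 0.24 for Dgat1, -0.29 to 0.34 for Scd, -0.11 to 0.05 for Gpam, -0.15 to 0.01 for Cyp51 and -0.48 to 0.13 for Fdft1. Scd was at -0.16 without OP replicate 2 and -0.29 without OR replicate 1. Without OP replicate 2, Gpam was at 0.05, Cyp51 at 0.01 and Fdft1 at 0.13. The cause was not tested. Elovl6 gave no value in any fit. With 3 rats per group, changes can go undetected. The intervals are not adjusted for the number of genes tested, so they do not mark what the adjusted test could detect. Those of Lpin2 (0.09 to 0.50), Lss (-0.99 to -0.10), Acaca, Lpin1, Dgat2, Idi1 and Sc5d excluded 0, but none of these genes passed. Scd, Elovl7 and Fdft1 had the widest intervals.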

Other observations

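Among the wider genes of triglyceride assembly, 3 stood closest to the threshold. Gpat3, an acyltransferase of the endoplasmic reticulum, stood at 25.2, 20 and 23.3 CPM in OP hearts, against 30.0, 36.3 and 33.7 CPM in OR rats, lower in every OP rat (log2 difference -0.50, SE 0.11, adjusted p = 0.0558 from limma). Gpd1, which makes glycerol phosphate from a glycolytic intermediate, stood at 262, 246 and 227 CPM in OP hearts, against 202, 206 and 188 CPM in OR hearts, higher in every OP rat (0.35, SE 0.08, adjusted p = 0.064 from limma). Plpp1, a lipid phosphate phosphatase, stood at 42.5, 59.8 and 41.5 CPM in OP hearts, against 31.1, 35.4 and 29.9 CPM in OR rats (0.60, SE 0.16, adjusted p = 0.0842 from limma). None passed the adjusted threshold. In these 3 genes the CPM of the groups did not overlap, but they were chosen after their values were seen. Among all 12 tested genes of this list, OP rats were above in 4 and below in 1, against 10.4% and 17.7% of all genes tested.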
